A study of Mus musculus with 15 samples.

Results

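Alveolar type 1 cells are the thin, flat epithelial cells that line most of the gas-exchange surface of the lung. A set of 10 genes that mark them was followed here across the lungs of 15 mice. The genes were Ager, Hopx, Aqp5, Pdpn, Cav1, Rtkn2, Clic5, Igfbp2, Emp2 and Gprc5a. They were taken as a named list, and every array probe whose RefSeq identifier maps to one of these symbols was used. That gave 10 genes and 17 probes, among 34401 genes and unnamed probes that were tested in all. Ager had 5 probes, Aqp5, Cav1 and Rtkn2 had 2 each, and the others had 1 each. All 17 probes were well above background on every array.

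The mice were females of the outbred stock Crlj:CD1(ICR), 11 weeks of age. For 7 days they ate powdered diets with 0 (control), 20, 500, 2500 or 5000 ppm permethrin, a pyrethroid insecticide, with 3 mice on each diet. RNA of the whole lung of each mouse was hybridised to its own 1-colour Agilent array. Levels are log2 signals with the 75th percentile of each array set to 0, so a level of 1 is a signal 2 times that percentile. Levels of different probes are not comparable with each other. In RNA of a whole lung, fewer cells of a type and less RNA per cell cannot be told apart.

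Type 1 cells exchange gas and move water and ions, and they share a basement membrane with the capillaries. They arise in development from distal lung progenitors, and after injury from type 2 cells, the surfactant makers, which pass through a transitional state rich in keratins. Nkx2-1 with the YAP, TAZ and TEAD factors is known to drive genes of the type 1 programme in the mouse. Most of the 10 genes are not private to type 1 cells: Cav1, the main coat protein of caveolae, is also abundant in endothelium, and Pdpn is a standard marker of lymphatic endothelium and mesothelium.

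Promoters are shown because Nqo1 and Gsta2 were higher at 5000 ppm than in control lungs. Both are textbook targets of NRF2, which binds antioxidant response elements. A part of NRF2 in these data was not tested. RefSeq promoter windows of build GRCm38.p6, from 250 bases before to 50 after a start site, were matched for 8 of the 10 genes (11 windows), all but Gprc5a and Rtkn2. The core TGACNNNGC, searched on both strands, lay in 3 of the 11 windows, each of a different gene. Counted from the start site, with upstream positions negative, it began at -116 and -53 in Clic5, at -186 in Emp2 and at 24 in 1 window of Igfbp2. The core was in 12.4% of the 32851 windows of all genes. The stretches upstream of Clic5 and Emp2 are given 5′ to 3′ with the core in capitals, and beside them stands the stretch upstream of 1 of the 2 start sites of Hopx, whose window held none of the motifs searched.
Clic5, chr17:44188322-44188571, + strand: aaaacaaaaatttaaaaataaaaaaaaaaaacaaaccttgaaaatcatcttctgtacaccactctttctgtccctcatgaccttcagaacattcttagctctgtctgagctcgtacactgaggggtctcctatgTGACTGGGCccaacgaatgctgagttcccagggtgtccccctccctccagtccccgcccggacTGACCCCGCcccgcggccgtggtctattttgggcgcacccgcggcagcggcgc
Emp2, chr16:10313969-10314218, - strand: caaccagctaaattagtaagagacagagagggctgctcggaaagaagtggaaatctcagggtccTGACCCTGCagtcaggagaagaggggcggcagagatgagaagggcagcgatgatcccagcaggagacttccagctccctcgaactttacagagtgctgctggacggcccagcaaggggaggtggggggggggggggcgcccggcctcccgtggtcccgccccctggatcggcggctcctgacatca
Hopx, chr5:77115124-77115373, - strand: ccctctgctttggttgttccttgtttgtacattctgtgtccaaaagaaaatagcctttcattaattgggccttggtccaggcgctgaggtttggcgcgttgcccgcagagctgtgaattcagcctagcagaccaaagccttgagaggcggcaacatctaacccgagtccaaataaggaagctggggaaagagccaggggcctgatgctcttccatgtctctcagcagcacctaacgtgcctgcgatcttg
The second core of Clic5 overlaps a GC box, GGGCGG, on the other strand. The GC box was in 6 of the 11 windows and in 35.7% of all windows. GGAATG, the core of the TEAD site, was in none of the 11 windows against 14.7% of all windows, and CAAGTG, a core of the NKX2-1 site, was in 1 window, that of the other start site of Hopx, against 13.6%. These are matches of letters in a short window, and no binding was measured.

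The arrays held lung RNA by their markers, with Sftpc between 9.11 and 9.61, Scgb1a1 between 9.17 and 10.1 and Nkx2-1 between 1.81 and 2.63 on every array. From 70.7% to 87.0% of probes were well above background. Slide 1 held the control arrays, the 20 ppm arrays and 500 ppm mice 1 and 2. Slide 2 held 500 ppm mouse 3 and all arrays at 2500 and 5000 ppm, so apart from that array slide and dose cannot be told apart between the high doses and control. Control mouse 1 and 20 ppm mouse 1 stood apart from the other 13 arrays on the second principal component (17.9% of the variance), with scores of -88.0 and -79.3, and 500 ppm mouse 3 and 2500 ppm mouse 3 on the first (36.5%). Only 500 ppm mouse 3 and 2500 ppm mouse 3 had an extraction status of 1 in the file headers. The former was the highest array for 30.9% of all genes. Control mouse 1 enters the control mean of every comparison with control below. The array of 20 ppm mouse 1 enters the 20 ppm mean, and other comparisons with control only through the spread that the fit shares.

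No call was made for any of the 10 genes. By limma with Benjamini-Hochberg adjustment over all 34401 genes, 0 of 10 passed an adjusted p of 0.05 at any dose against control, at 5000 against 2500 ppm, on the trend over the 5 dose ranks or in the F test for any difference among diets. At 5000 ppm against control 0.0407% of all genes passed, on the trend 0.142% and in the F test 0.0407%, and at the other doses and for 5000 against 2500 ppm 0%. The lowest adjusted p of a member was 0.512, for Hopx on the trend. At an unadjusted p under 0.05 by limma, 1 of 10 passed at 5000 ppm (Hopx) beside 5.14% of all genes, 1 at 500 ppm (Igfbp2) beside 2.84%, and 1 on the trend (Hopx) beside 9.22%. None passed it at 20 or 2500 ppm, beside 1.48% and 8.49%, for 5000 against 2500 ppm, beside 5.04%, or in the F test, beside 5.36%. For scale, Nqo1 was higher by 2.22 ± 0.21 log2 at 5000 ppm (SE, limma adjusted p = 0.000963) and Gsta2 by 2.56 ± 0.21 (limma adjusted p = 0.000315), while the 10 genes lay between -0.37 and 0.47.

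At 5000 ppm against control 8 of the 10 genes had a positive difference, with a median of 0.227 log2, beside 60.6% positive and a median of 0.0725 over all genes. The median of the 10 was 0.085 at 20 ppm, 0.102 at 500 ppm and 0.0677 at 2500 ppm, against -0.0254, 0.119 and 0.0519 over all genes. These comparisons share the 3 control arrays. Leaving out control mouse 1 turned the medians to -0.095, -0.122 and -0.0982 at the 3 lower doses, beside -0.101, 0.0415 and -0.0097 over all genes. At 5000 ppm it brought the median of the 10 to 0.0663, beside 0.0172 over all genes. For 5000 against 2500 ppm, which lies within slide 2, the median was 0.181 beside 0.0329 over all genes. Without 2500 ppm mouse 3 it was 0.120 beside 0.0962, and without 5000 ppm mouse 1 it was 0.0997 beside 0.0422. With slide as a fixed block, which only the 500 ppm arrays tie together, the median of the 10 at 5000 ppm against control was 0.268, with Hopx at 0.18, Aqp5 at 0.14, Cav1 at 0.36 and Pdpn at 0.43. In that fit the slide effect rests on 500 ppm mouse 3, an array with extraction status 1, against 500 ppm mice 1 and 2. The median over all genes was then -0.144. None of the 10 passed the adjusted threshold, where 72 of all genes were called higher and 4880 lower.

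Ager is the receptor for advanced glycation end products, which in the lung is a basal membrane protein of type 1 cells. Its level was 8.18, 8.91 and 8.73 in control lungs, 8.29, 9.00 and 8.88 at 20 ppm, and 8.76, 8.70 and 8.69 at 500 ppm. It was 8.81, 8.71 and 8.77 at 2500 ppm and 9.07, 8.86 and 9.00 at 5000 ppm. The 5000 ppm lungs lay above all 2500 ppm lungs but not above control mouse 2, and control mouse 1 and 20 ppm mouse 1 were the 2 lowest of all. The mean was 8.98 ± 0.11 at 5000 ppm and 8.61 ± 0.38 in control lungs (SD, n = 3 each), a difference of 0.37 ± 0.21 log2 (SE, 95% interval -0.08 to 0.82, limma adjusted p = 0.964). Without control mouse 1 the difference was 0.16.

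Hopx, a homeodomain protein that does not itself bind DNA and acts as a cofactor of transcription, had the lowest unadjusted p of the 10 at 5000 ppm. Its level was 6.32, 6.77 and 6.76 in control lungs, 6.55, 6.63 and 6.83 at 20 ppm, and 6.72, 6.70 and 6.90 at 500 ppm. It was 6.85, 6.75 and 6.62 at 2500 ppm and 6.90, 7.01 and 7.04 at 5000 ppm. All 3 lungs at 5000 ppm lay above all 3 at 2500 ppm and above all 3 control lungs. The difference from control was 0.37 ± 0.15 log2 (SE, 95% interval 0.04 to 0.70), with a limma adjusted p of 0.928, and it was 0.22 without control mouse 1.

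Rtkn2 was the other gene whose 5000 ppm and control lungs did not overlap at the probe used. Its level was 3.79, 4.52 and 4.44 in control lungs, 4.13, 4.70 and 4.77 at 20 ppm, and 4.50, 4.71 and 4.53 at 500 ppm. It was 4.85, 4.61 and 4.25 at 2500 ppm and 4.76, 4.57 and 4.76 at 5000 ppm. The 5000 ppm lungs overlapped those of every other treated diet. The difference from control was 0.45 ± 0.23 log2 (SE, 95% interval -0.05 to 0.95, limma adjusted p = 0.964), and 0.22 without control mouse 1. At the second probe of Rtkn2, A_52_P27482, 5000 ppm and control lungs overlapped. Control mouse 2 had 3.27 there, above 5000 ppm mice 1 and 3 at 3.25 and 3.19. By the probes used, 2 of 10 genes, Hopx and Rtkn2, were higher without overlap at 5000 ppm, where 12.9% of all genes were. At the same dose 0 of 10 were lower, where 4.99% were.

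Gprc5a, an orphan receptor induced by retinoic acid that acts as a lung tumour suppressor in mice, had its diet means in the order of dose. Its level was 5.33, 6.35 and 6.15 in control lungs, 5.68, 6.41 and 6.21 at 20 ppm, and 6.22, 6.10 and 6.19 at 500 ppm. It was 6.55, 6.31 and 6.10 at 2500 ppm and 6.65, 6.32 and 6.26 at 5000 ppm. Each diet overlapped the next one up in dose, and control mouse 2 lay above 5000 ppm mice 2 and 3. Without control mouse 1 the control mean lay above the means at 20 ppm (6.10) and 500 ppm (6.17), so the order was lost. The difference between 5000 ppm and control was 0.47 ± 0.26 log2 (SE, 95% interval -0.09 to 1.03, limma adjusted p = 0.964), the highest value of the 10 genes, and it was 0.16 without control mouse 1.

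Igfbp2 is a secreted binding protein of insulin-like growth factors that marks mature type 1 cells in the mouse. With all arrays in the fit, its difference from control was negative at every dose. Its level was 3.13, 2.45 and 1.83 in control lungs, 2.56, 2.10 and 2.32 at 20 ppm, and 2.12, 1.55 and 1.42 at 500 ppm. It was 1.83, 2.03 and 1.67 at 2500 ppm and 2.44, 1.47 and 2.40 at 5000 ppm. Every treated diet overlapped the control lungs, whose own spread (SD 0.65) was the widest of any diet for this gene. The difference from control was -0.78 at 500 ppm, -0.63 at 2500 ppm and -0.37 ± 0.33 at 5000 ppm (log2, SE, 95% interval at 5000 ppm -1.09 to 0.36, limma adjusted p = 0.969). At 20 ppm it was -0.14 ± 0.33 (log2, SE). Without control mouse 1 the difference was -0.45 at 500 ppm, -0.30 at 2500 ppm and -0.04 at 5000 ppm. At 20 ppm it then turned positive, with a 20 ppm mean of 2.33 beside control mice 2 and 3 at 2.45 and 1.83.

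The other 5 genes are a water channel and proteins of the cell membrane. Aqp5, the apical water channel of type 1 cells, ran from 5.64 to 5.97 at 5000 ppm and from 5.20 to 5.81 in control lungs. Cav1 ran from 1.80 to 1.94 at 5000 ppm and from 1.36 to 1.84 in control lungs. Both overlapped control but lay above all 2500 ppm lungs, at 5.44 to 5.61 for Aqp5 and 1.59 to 1.71 for Cav1. Pdpn, a mucin-type glycoprotein of the apical membrane, ran from 5.11 to 5.51 at 5000 ppm and from 4.64 to 5.52 in control lungs. Clic5, a chloride intracellular channel protein tied to the cytoskeleton, ran from 5.83 to 6.18 at 5000 ppm and from 5.56 to 6.53 in control lungs. Emp2, a membrane protein with 4 passes, ran from 6.83 to 7.06 at 5000 ppm and from 6.51 to 7.21 in control lungs. The differences from control were 0.22 for Aqp5, 0.23 for Cav1, 0.19 for Pdpn, -0.03 for Clic5 and 0.04 for Emp2 (log2), and the limma adjusted p was between 0.967 and 0.991. The intervals reach from -0.35 to 0.74 for Pdpn, from -0.56 to 0.50 for Clic5 and from -0.43 to 0.51 for Emp2. Without control mouse 1 the differences were 0.04 for Aqp5, 0.09 for Cav1, -0.04 for Pdpn, -0.27 for Clic5 and -0.17 for Emp2.

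**Figure D1:**
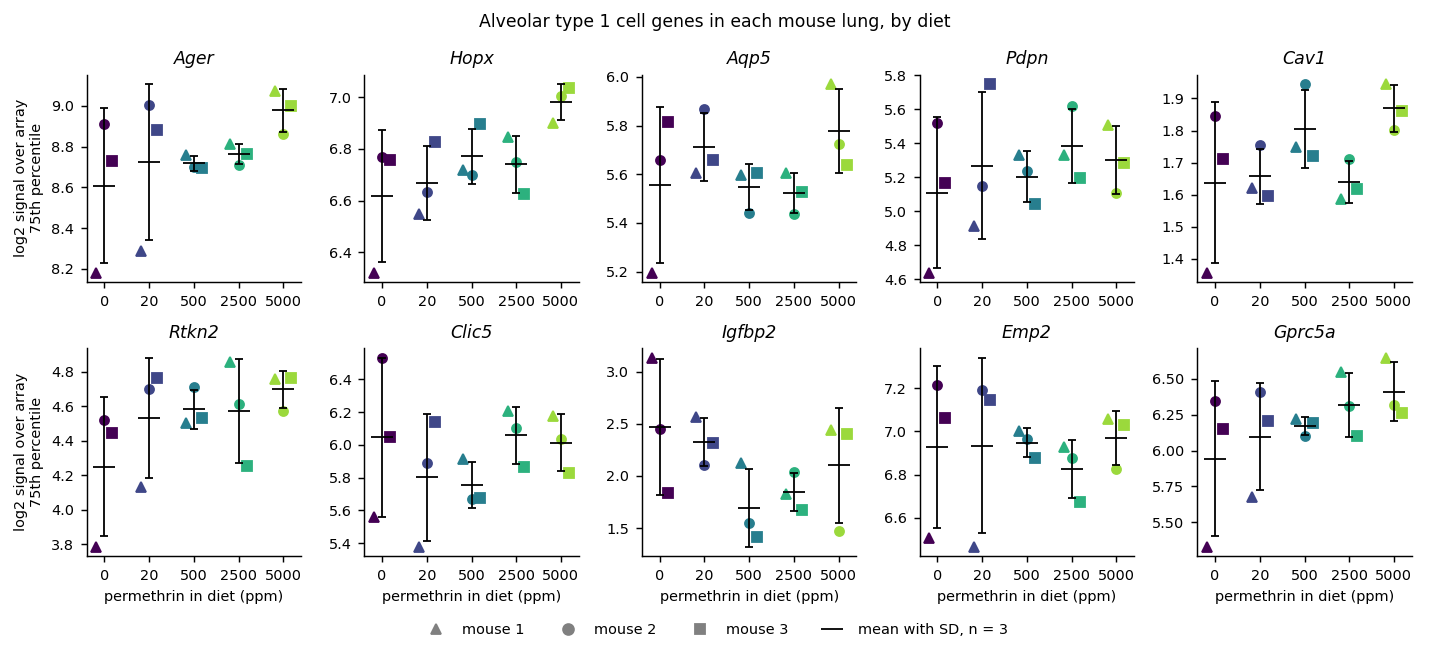
Level of each of the 10 genes (log2 signal over the array's 75th percentile, each panel on its own scale) in each mouse against dietary permethrin in ppm, with the mean and SD of 3 mice per diet. Control mouse 1 is the lowest point for 7 genes and the highest for Igfbp2, and the 5000 ppm points lie above all control points for Hopx and Rtkn2.

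For 5000 against 2500 ppm, 4 of 10 genes (Ager, Hopx, Aqp5 and Cav1) were higher without overlap at the probes used, where 8.15% of all genes were. In the same comparison 0 of 10 were lower, where 7.10% were. Ager probe A_55_P2723599 and the second Cav1 probe were higher without overlap too. Ager probes A_66_P124640, A_55_P2718127 and A_55_P2718122 overlapped, the first at 2.98 to 4.87 against 3.88 to 4.16. The second Aqp5 probe also overlapped, at -0.31 to 1.08 against -0.12 to 0.30. In a fit of the slide 2 arrays alone, a choice made after seeing the data, the lowest limma adjusted p of any member was 0.757. At 20, 500 and 2500 ppm no gene of the 10 was separated from control in either direction, where 1.50%, 4.53% and 8.83% of all genes were higher and 4.35%, 2.16% and 4.72% lower.

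**Figure D2:**
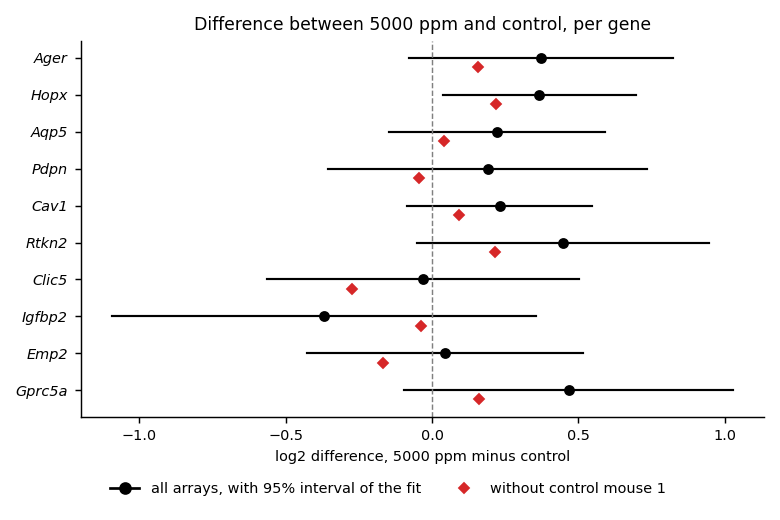
Difference between 5000 ppm and control for each gene (log2, x axis) with the 95% interval of the fit over all 15 arrays as bars, and the difference without control mouse 1 as diamonds. The interval leaves 0 out for Hopx alone, and without control mouse 1 the values lie between -0.27 and 0.22.

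The 2 arrays that stood apart lay at the edge of the range for most of the 10 genes. Control mouse 1 was the lowest of the 15 arrays for 7 of the 10 genes, as it was for 19.3% of all genes, and 20 ppm mouse 1 for 2, as it was for 23.6%. In 7 of the 10 (Ager, Hopx, Pdpn, Rtkn2, Clic5, Emp2 and Gprc5a) both arrays lay below the other 13, a pattern of 20.8% of all genes. In Igfbp2 both lay above the other 13, a pattern of 6.65%. Some genes of other lung cells were highest on the same arrays. Lyz2, a lysozyme of macrophages and type 2 cells, stood at 4.97 in control mouse 1 and at 4.48 in 20 ppm mouse 1, and ran between 1.71 and 2.76 elsewhere. Car4, a carbonic anhydrase of capillary endothelium, had 1.97 and 2.11 on these arrays and between -0.82 and 0.14 elsewhere. But Scnn1g, on the list of further type 1 genes below, was highest there too, at 2.20 and 2.28 against 0.58 to 1.23 elsewhere. Nor were all other cell types higher. As differences from its mean over the 15 arrays, the type 2 list below had 0.38 and 0.51 there, and the ciliated list -0.29 and -0.38. The part of these arrays' RNA or cell content in the differences from control was not tested.

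The probes of Ager fell into discordant groups. The probe used, A_55_P2718102, and A_55_P2723599 followed each other across the 15 arrays (r = 0.998, rho = 0.982, each with a permutation p of 1e-05, the smallest that 100000 permutations can give). Probe A_55_P2718127, mapped to the same RefSeq transcript, ran between 2.90 and 5.05 on 13 arrays, but had 5.81 in control mouse 1 and 6.01 in 20 ppm mouse 1. A_66_P124640 had 5.62 and 5.89 on those 2 arrays and between 2.98 and 4.87 on the others. A_55_P2718122, mapped to a noncoding Ager transcript, had -0.64 and -0.53, and between -2.39 and -1.05 on the others. So the 2 arrays with the lowest signal at the used probe had the highest at these 3 probes.

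Against the used probe, A_55_P2718127 had r = -0.626 (two-sided permutation p = 0.0132, adjusted over 7 probe pairs 0.0201) and rho = -0.232 (permutation p = 0.404). Without control mouse 1 and 20 ppm mouse 1, the farthest from the median of the used probe, r was 0.157, so the relation rests on those 2 arrays. The other 2 probes gave r of -0.622 and -0.636 (permutation p = 0.0143 and 0.0140, adjusted 0.0201 each) and rho of -0.157 and -0.225 (permutation p = 0.578 and 0.417), and r of 0.235 and 0.217 without the same arrays. Between 5000 ppm and control these 3 probes differed by -0.32 to -0.38 log2 with SEs of 0.39 to 0.74, while A_55_P2723599 gave 0.36 ± 0.21. With the mean of all its probes Ager came to -0.06.

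The probes of Aqp5 also differed. At the used probe control mouse 1 was the lowest array, while 20 ppm mouse 1, at 5.61, lay at the median of the 15. The second probe, A_55_P2071236, ran between -0.46 and 1.08 on 13 arrays, but stood at 2.49 in control mouse 1 and at 2.79 in 20 ppm mouse 1. Its correlation with the used probe was r = -0.425 (two-sided permutation p = 0.121) and rho = -0.225 (permutation p = 0.419), and r was 0.0425 without the 2 arrays farthest from the median. The second probe differed by -0.50 ± 0.72 log2 between 5000 ppm and control, the used probe by 0.22 ± 0.17, and the mean of both came to -0.14. The probe pairs of Cav1 (r = 0.751, permutation p = 0.00081, adjusted 0.00283, rho = 0.825, permutation p = 0.00022) and Rtkn2 (r = 0.627, permutation p = 0.0175, adjusted 0.0205, rho = 0.421, permutation p = 0.122) had positive r. For Rtkn2 r was 0.160 without control mouse 1 and 20 ppm mouse 1, its farthest arrays, so that relation too rests on them, while for Cav1 it was 0.732 without its 2 farthest arrays. Among the 8741 probe pairs of the 6781 genes with 2 or more probes, 39.2% had r below 0 and the median r was 0.166.

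**Figure D3:**
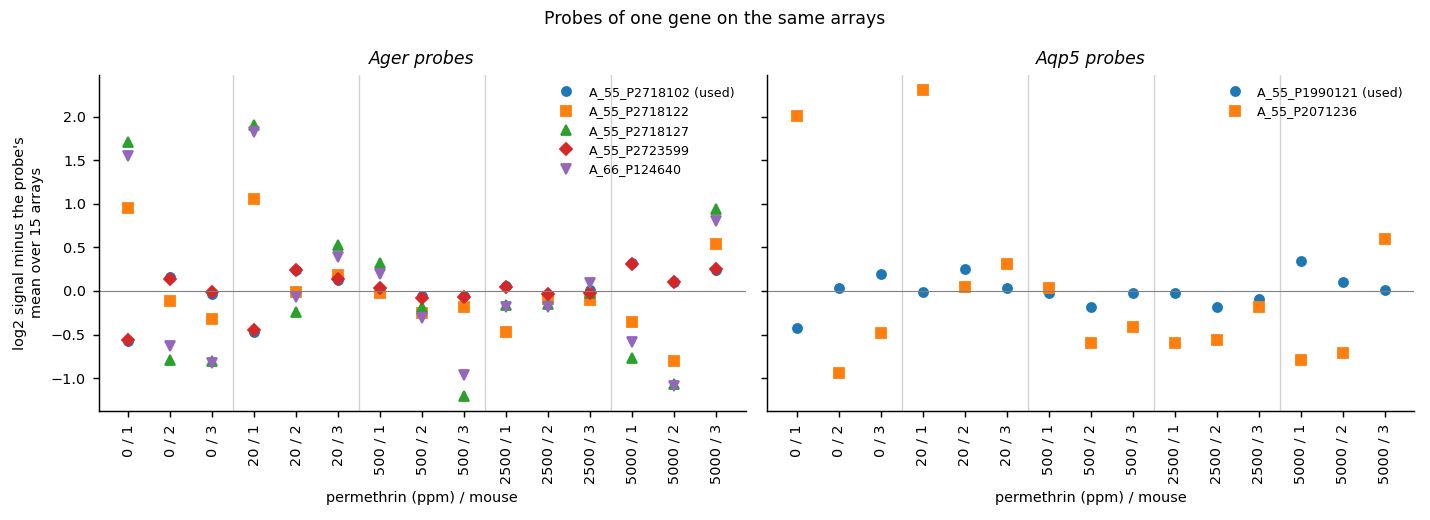
Level of each probe of Ager (left) and Aqp5 (right) on each of the 15 arrays, as log2 signal minus the probe's mean over the arrays, ordered by dose and mouse. The used probes are lowest in control mouse 1, where 3 Ager probes and the second Aqp5 probe stand about 1 to 2 units above their mean.

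Across the 15 arrays the genes most like Ager by Pearson's r were Txn2 (0.962), Cuta (0.959), Rassf7 (0.959), Ap2m1 (0.956) and Bloc1s6 (0.955), all outside the 10. Of the members, Gprc5a came nearest at 0.914, a value that 0.55% of 19268 named genes exceeded, before Rtkn2 (0.844) and Emp2 (0.834), and Igfbp2 had -0.336. The median over all genes was 0.283. Over the 13 arrays without control mouse 1 and 20 ppm mouse 1 the nearest genes were Atp6v0b (0.950) and Ubb (0.916). The nearest members were then Aqp5 (0.713) and Igfbp2 (0.697), and Hopx and Pdpn had 0.339 and 0.234. The genes most like the mean of the 10 over 15 arrays were Usp39 (0.954), Katna1 (0.949), Igfbp7 (0.945), Btg3 (0.943) and Glmp (0.942), and Usp39, Katna1 and Btg3 were also among the 5 nearest over 13 arrays. These values are descriptions, and the arrays share their scaling and the 5 diets.

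Other genes of the type 1 cell gave no call either. Of 30 further type 1 genes, 0 passed the adjusted threshold at 5000 ppm by limma and 1 passed an unadjusted p under 0.05, beside 5.14% of all genes. Of the 30, 23 were positive, with a median of 0.143 log2, beside 60.6% and 0.0725 over all genes. Cdkn2b, an inhibitor of cyclin-dependent kinases, was 3.59 to 3.96 at 5000 ppm and 2.86 to 3.28 in control lungs (0.58 ± 0.20, SE, limma adjusted p = 0.862), and Igfbp6, another binding protein of insulin-like growth factors, differed by 0.44 ± 0.23. Of 15 measured regulators of type 1 fate, 0 passed either threshold, and the median was 0.0417. The widest differences there were Notch1, the Notch receptor (-0.52 ± 0.55), and Ccn2, a target of YAP and TAZ (0.46 ± 0.26, log2 and SE).

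Protein families and partners of the members gave 0 calls past the adjusted threshold and 0 at an unadjusted p under 0.05 for 5000 ppm against control, in the lists that follow. Of all genes 0.0407% and 5.14% passed these thresholds by limma, and the median over all genes was 0.0725. The 8 other caveola coat genes had a median of 0.227 at 5000 ppm and lay between -0.30 (Ehd2) and 0.35 (Cav3). The 10 water and ion transport genes had a median of 0.0707, with Scnn1g, a subunit of the epithelial sodium channel, at -0.38 and Aqp4 at 0.36. The 15 paralogs had a median of 0.149, with Igfbp4 at -0.46 and Gprc5c at 0.45. The 7 measured ligands of the Ager receptor had a median of 0.071, with Hmgb1 at -0.37 and S100b at 0.68.

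Type 2 cell genes and other cell types were read beside them. At 5000 ppm 5.14% of all genes passed an unadjusted p under 0.05 by limma, 60.6% were positive and the median was 0.0725. Of 18 type 2 genes, 0 passed the adjusted threshold at 5000 ppm, 1 passed an unadjusted p under 0.05 and 11 were negative, with a median of -0.165. Lyz2 had the widest value there, -1.04, which was -0.17 without control mouse 1, and Egfl6 had -0.78. The endothelial list bears on Cav1, and its mean level, as the difference from its own mean over the 15 arrays, ran from -0.31 to 0.04 at 5000 ppm and from -0.08 to 0.45 in control lungs, with 0 of 16 genes past the adjusted or the unadjusted threshold and a median of -0.11. Its widest values, -0.89 for the apelin receptor Aplnr and -0.71 for Car4, were -0.16 and 0.09 without control mouse 1. The lymphatic and mesothelial lists bear on Pdpn. Of 7 lymphatic genes 0 passed the adjusted and 1 the unadjusted threshold (median -0.0659, Lyve1 0.84, Flt4 -0.68), and of 8 mesothelial genes 0 passed either (median -0.163, Upk3b -1.11, Nkain4 0.26). The mesothelial list ran from -0.78 to 0.22 at 5000 ppm and from -0.14 to 0.30 in control lungs, and the lymphatic list from -0.28 to 0.13 at 5000 ppm and from -0.29 to -0.02 in control lungs. Their part in the levels of Cav1 and Pdpn was not tested.

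The remaining lists cover airway, stromal and blood cells, and none of their genes passed the adjusted threshold at 5000 ppm. Over all genes 5.14% passed an unadjusted p under 0.05 by limma there, 12.9% were higher without overlap and the median was 0.0725. Of 8 club cell genes, 2 passed an unadjusted p under 0.05, with a median of 0.316, Cyp2a5 at 1.62 and Aldh1a7 at 0.53, and 6 of the 8 were higher without overlap. Of 8 genes of ciliated cells, 4 passed the unadjusted threshold, with a median of 0.498, Meig1 at 0.61 and Ccdc39 at 0.55, and 5 of the 8 were higher without overlap. No fibroblast, immune or pulmonary vein muscle gene passed the unadjusted threshold. Of these, the 10 fibroblast genes had a median of 0.133 (Dcn 0.54, Mfap4 -0.49), the 10 immune genes -0.241 (Ms4a1 -0.33) and the 6 muscle genes 0.881 (Myl7 1.46, Nppa 1.04). The SEs were 1.36 for Myl7 and 1.45 for Nppa. The mean log2 level of the 6 muscle genes ran from 1.26 to 3.76 at 5000 ppm and from 0.15 to 2.28 in control lungs.

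Genes of the transitional state between type 2 and type 1 cells had higher values at 5000 ppm in 12 of 15 cases, beside 60.6% of all genes. Of the 15, 0 passed the adjusted threshold at 5000 ppm and 6 passed an unadjusted p under 0.05, beside 5.14% of all genes. The median was 0.457, beside 0.0725 over all genes. Krt8, Krt18, Sfn, Gdf15, Fn1 and Ndrg1 (6 of 15) were higher without overlap at 5000 ppm, where 12.9% of all genes were, by 0.49, 0.57, 1.43, 0.97, 0.54 and 0.52 log2. Most club and ciliated cell genes listed above were higher without overlap too, and their part in the transitional values was not tested. Sfn, the epithelial protein stratifin, had 1.58, 2.17 and 2.24 in control lungs, 2.01, 1.87 and 1.71 at 20 ppm, and 1.96, 2.30 and 2.05 at 500 ppm. It had 2.84, 2.50 and 3.34 at 2500 ppm and 3.12, 3.55 and 3.61 at 5000 ppm, where all 3 lungs lay above the control, 20 ppm and 500 ppm lungs. It was the only gene of the 15 called on the trend, at 0.39 ± 0.05 log2 per dose rank (SE, limma adjusted p = 0.0137). That call was lost with slide as a random block (adjusted p = 0.437), without control mouse 1 and 20 ppm mouse 1 together (0.101), and without control mouse 1 (0.0619), control mouse 2 (0.0502), 5000 ppm mouse 2 (0.0819) or 5000 ppm mouse 3 (0.0604). The list's mean level ran from 0.26 to 0.28 at 5000 ppm and from -0.29 to -0.04 in control lungs. That of the 10 type 1 genes ran from -0.00419 to 0.27 at 5000 ppm and from -0.38 to 0.20 in control lungs. Whether the 2 lists differ from each other in response was not tested.

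**Figure D4:**
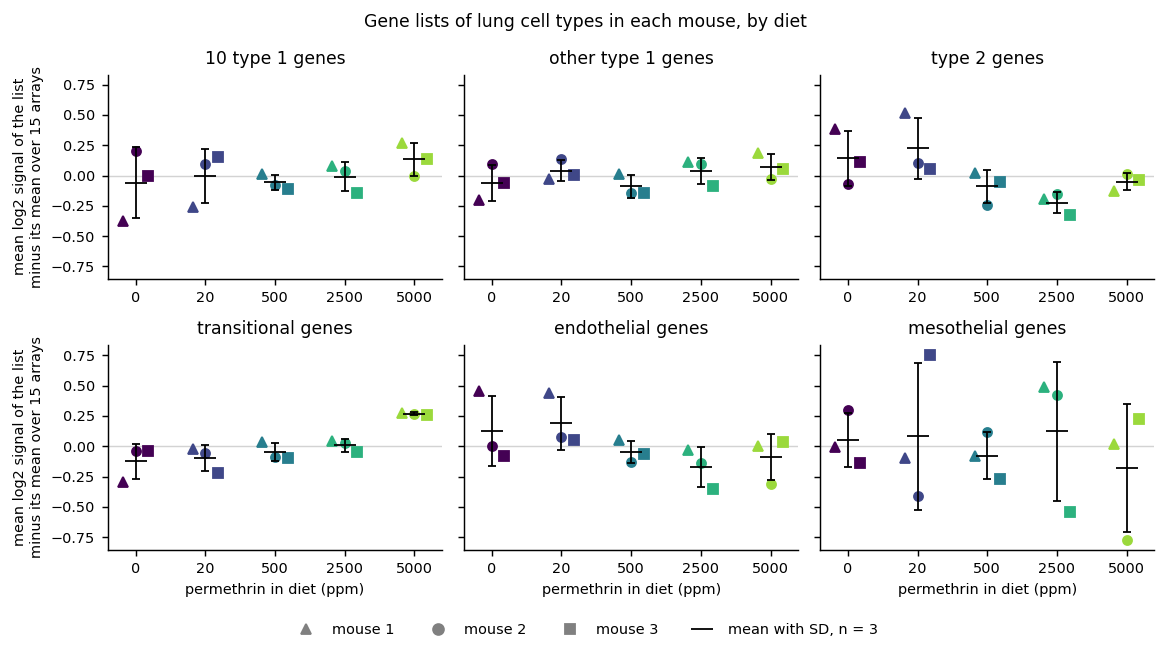
Mean level of 6 gene lists in each mouse (log2 signal minus the list's own mean over 15 arrays) against dietary permethrin in ppm, with the mean and SD of 3 mice per diet. The 5000 ppm and control points overlap for the 10 type 1 genes, and lie apart, at 0.26 to 0.28 and -0.29 to -0.04, for the transitional genes.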

How the data were processed

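Agilent Feature Extraction 10.7.3.1 read the scans, per the file headers. The deposited files give for each spot a processed signal, background already subtracted, as linear intensity. The authors' deposited table of log2 values differed from log2 of that signal by 1 constant per array. Steps before scanning are per the labels' protocols. Probe coordinates are on mm9 per the headers of slide 1 and were not used.

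Control spots and outlier spots were left out, spots of a probe were averaged (56605 probes), and each array's 75th percentile of log2 signal was set to 0. A probe was kept (43154) when at least 50% of its spots were well above background on all 3 arrays of at least 1 diet. Symbols came from RefSeq identifiers (19289 of 34401 features, 21930 probes without a symbol), with the kept probe of the highest mean per symbol. The number of arrays and the signal over background limit the precision.

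Limma 3.58.1 in R 4.3.3 fitted all 15 arrays with 1 coefficient per diet and 10 residual degrees of freedom. P-values are two-sided, adjusted by Benjamini-Hochberg over the features of a contrast at a threshold of 0.05. The labels call the arrays of a diet biological replicates. The fit was tested on simulated data. Probe correlations used 100000 permutations.

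The 10 genes, the 16 other lists (190 distinct genes, 188 measured), the tests and the rule for naming genes were chosen with earlier results of these data known. The rule names the 10 genes, Nqo1 and Gsta2, from each list the genes past the threshold and the 2 of largest difference at 5000 ppm, and the 5 genes most like Ager and most like the mean of the 10. One gene that falls under it is not reported here. Krt8, Krt18, Fn1 and Ndrg1 were named after their values were seen, as were Atp6v0b and Ubb. As deviations from their diet means, like-numbered arrays of control and 20 ppm had r of 0.61, 0.26 and 0.17. For 500 and 2500 ppm these were 0.38, 0.29 and 0.48, and for control and 5000 ppm -0.12, -0.12 and -0.20. But 20 ppm mouse 2 with control mouse 3 had 0.38, and 20 ppm mouse 3 with control mouse 2 had 0.37. Likewise 2500 ppm mouse 1 with 500 ppm mouse 2 had 0.20, and 2500 ppm mouse 2 with 500 ppm mouse 1 had 0.25. The other unlike-numbered pairs of control with 20 ppm and of 500 with 2500 ppm had negative r. For control with 5000 ppm, the unlike-numbered pairs ran from -0.07 to 0.21. Deviations from a mean of 3 arrays balance each other, so these values do not settle a pairing by number. Alternatives covered background correction, scaling, filters, the probes of a gene, blocks, weights and left-out arrays.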

Additional observations from a re-analysis of the deposited data

How the results depend on the processing

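None of the 10 genes passed the adjusted threshold in any comparison under any of 36 other settings. In some of these many other genes passed, among 34401 tested. With slide as a fixed block 72 were called higher and 4880 lower at 5000 ppm, and 94 and 5400 on the trend. The slide effect there rests on 500 ppm mouse 3, an array with extraction status 1, against 500 ppm mice 1 and 2. With 4 arrays left out 503 were called higher and 441 lower for 5000 against 2500 ppm. The lowest limma adjusted p of the 10 genes was 0.239, for Hopx on the trend with array weights. At 5000 ppm Hopx, Rtkn2, Cav1 and Gprc5a kept a positive difference in every setting that bears on that comparison. With 3 mice a diet, the number of arrays limits the precision.

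Some signs turned at 5000 ppm. Emp2 came to -0.0242 with normexp, -0.13 with quantile normalization and -0.12 with array weights. Ager came to -0.0614 and Aqp5 to -0.14 with the mean of a gene's probes. Slide as a fixed block gave 0.0897 for Clic5 and 0.0490 for Igfbp2, and slide as a random block 0.0075 for Clic5. Without the first arrays of control and 20 ppm, or without these and the 2 with extraction status 1, Pdpn came to -0.0448 and Emp2 to -0.17. The causes of these turns were not tested. For Ager and Aqp5, the discordant probes are described above. The median of the 10 at 500 ppm was -0.128 with the array median as the scale, where the median of all genes moved to -0.112 against 0.119, and -0.122 without the first arrays.

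Leaving out each array in turn gave 0.16 to 0.52 for Ager, 0.22 to 0.44 for Hopx, 0.04 to 0.35 for Aqp5, -0.0448 to 0.40 for Pdpn, 0.09 to 0.33 for Cav1, 0.22 to 0.58 for Rtkn2, -0.27 to 0.21 for Clic5, -0.69 to -0.04 for Igfbp2, -0.17 to 0.19 for Emp2 and 0.16 to 0.67 for Gprc5a at 5000 ppm. Pdpn and Emp2 turned without control mouse 1, and Clic5 turned without control mouse 2 (0.21) and without 5000 ppm mouse 3 (0.06). The median of the 10 ran from -0.095 to 0.225 at 20 ppm, -0.122 to 0.247 at 500 ppm, -0.098 to 0.227 at 2500 ppm, 0.066 to 0.365 at 5000 ppm, 0.10 to 0.22 for 5000 against 2500 ppm and 0.01 to 0.08 per dose rank on the trend. With the replicate block 0 of 10 genes passed and the median at 5000 ppm was 0.227, and the block changed no call of the 10 genes. Nqo1 had 2.19 with quantile normalization (limma adjusted p = 0.0521).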
